A study of Mus musculus with 6 samples.

Results

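The genes described here are 8 genes that are commonly used to mark the mural cells of blood vessels: Acta2, Tagln, Myh11, Myl9, Cnn1, Des, Mylk and Rgs5. They were picked by name as known markers, with earlier results of these data known. All 8 are among the 18560 genes counted in the dissociated mouse olfactory bulb. Droplet-based single-cell RNA sequencing, which captures the 3′ ends of transcripts and counts each captured molecule once by its unique molecular identifier (UMI), gave 51426 cells that the study's authors assigned to 38 clusters. The 6 libraries came from pools of wild-type C57BL/6NJ mice aged 14 weeks, 2 libraries per condition. Control mice had no manipulation by their labels. Occluded mice had a plug in 1 naris for 6 weeks, and the study took the plugged side as the sample deprived of odour. Trained mice, which were deprived of water, learned for 6 weeks to discriminate odours for a water reward. A comparison with trained mice thus also includes water deprivation. The mice of a pool cannot be separated, and the bulbs were dissected with surrounding tissue that includes some olfactory epithelium. In each condition, the cells of replicate 1 carried RNA of Y-linked genes and those of replicate 2 carried Xist, so the replicate number also separates pools of males from pools of females.

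Mural cells surround the endothelial tube of blood vessels. On arteries and arterioles they are smooth muscle cells, which narrow the vessel when myosin pulls on actin filaments, and on capillaries they are pericytes, which hold less of this contractile apparatus. Of the 8 genes, Acta2 encodes smooth muscle alpha-actin and Myh11 the smooth muscle myosin heavy chain, the thin and thick filaments of the apparatus. Myl9 encodes the regulatory light chain of myosin and Mylk the kinase that phosphorylates it when calcium rises. Tagln (transgelin, or SM22) and Cnn1 (calponin) bind actin, and Des encodes the intermediate filament desmin. Rgs5 encodes a regulator of G protein signalling and is not a contractile protein, although it is a common marker of mural cells and of pericytes in particular.

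Many smooth muscle genes are known targets of serum response factor, which binds the CArG box, a stretch of 10 bases made of CC, 6 bases that are each A or T, and GG. RefSeq promoters of the mouse build GRCm38.p6, from 250 bases before to 50 bases after a start of transcription, were at hand for 6 of the 8 genes, without Tagln and Myh11. The box was searched in these windows on both strands, first exactly and then with at most 1 G or C among its 6 middle bases. Myl9, on chromosome 2, held 1 exact box and 1 with a single mismatch, which begin 161 and 99 bases before the start. Acta2, on chromosome 19, held 2 boxes with a single mismatch, which begin 84 and 34 bases before the start. These stretches are shown because Acta2 and Myl9 were the only members with a match and because the 2 genes differed in how widely they were found in the mural cells below. Capitals mark the boxes, and both sequences are read on the strand of the gene.
Acta2, chr19:34255368-34255487, minus strand: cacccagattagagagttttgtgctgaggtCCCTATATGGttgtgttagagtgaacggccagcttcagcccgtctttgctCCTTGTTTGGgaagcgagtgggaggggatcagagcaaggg
Myl9, chr2:156775273-156775404, plus strand: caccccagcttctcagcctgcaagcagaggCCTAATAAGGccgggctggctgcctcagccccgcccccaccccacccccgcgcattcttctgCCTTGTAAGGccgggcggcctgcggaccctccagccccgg

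An exact box stood in 535 of 32851 promoter windows (1.63%), and a box with at most 1 G or C in the middle stood in 3280 (9.98%). At least 2 of the looser boxes, as in Acta2 and Myl9, stood in 270 windows (0.822%). Among 32 other smooth muscle contractile genes, 29 had a window, of which 6 held an exact box and 9 the looser one. Among 20 pericyte genes, 15 had a window, of which none held an exact box and 2 held the looser one. For these lists a gene was counted if any of its windows held a box. The counts of genes are thus not on the same scale as the shares of windows. The windows of Cnn1 and Mylk, on chromosomes 9 and 16, and of Des and Rgs5, both on chromosome 1, did not hold these letters. The window of Mylk lies inside the gene's span of chr16:34745199-35002436. Both boxes of Acta2 lie inside its span of chr19:34240336-34255585. Windows at other starts of these genes were not searched.

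All 8 genes had their highest mean level in Mural2, the larger of the 2 clusters that the authors named mural, with 769 cells and 87 to 174 per library. Levels are counts summed over the cells of a cluster in a library, divided by all UMIs of these cells and scaled to a total of 1000000 (CPM), and errors are SDs over the 6 libraries. The clusters were made from the same counts, so that these levels are a description without a test. Acta2 reached 1374 ± 437 CPM in Mural2. In Mural1, the smaller mural cluster of 158 cells, it reached 260 ± 291 CPM, and the next cluster, a neuronal one named N7, held 10.7 ± 12.7 CPM from 5 UMIs. Tagln stood at 841 ± 223 CPM in Mural2 and 130 ± 158 CPM in Mural1, and Myh11 at 349.6 ± 107 CPM and 83.2 ± 60.0 CPM. For each of these 3 genes, Mural2 was above all other clusters in 6 of 6 libraries.

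Myl9, Des and Mylk were closer between the mural clusters. Myl9 stood at 2978 ± 372 CPM in Mural2 and 1213 ± 218 CPM in Mural1, Des at 204 ± 33.1 CPM and 107 ± 36.8 CPM, and Mylk at 470.3 ± 82.1 CPM and 306 ± 139 CPM. Mylk was highest in Mural2 in 5 of 6 libraries and its libraries overlapped between the mural clusters. Rgs5 could not be ranked between them: its mean was 3599.7 ± 357 CPM in Mural2 and 3592 ± 763 CPM in Mural1, and Mural2 was the higher in 3 of 6 libraries. Cnn1 had the lowest level of the 8, with 38.8 ± 29.7 CPM from 41 UMIs in Mural2, and no UMI in Mural1 among 599340 UMIs of all genes, which allows up to 5.01 CPM.

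**Figure D1:**
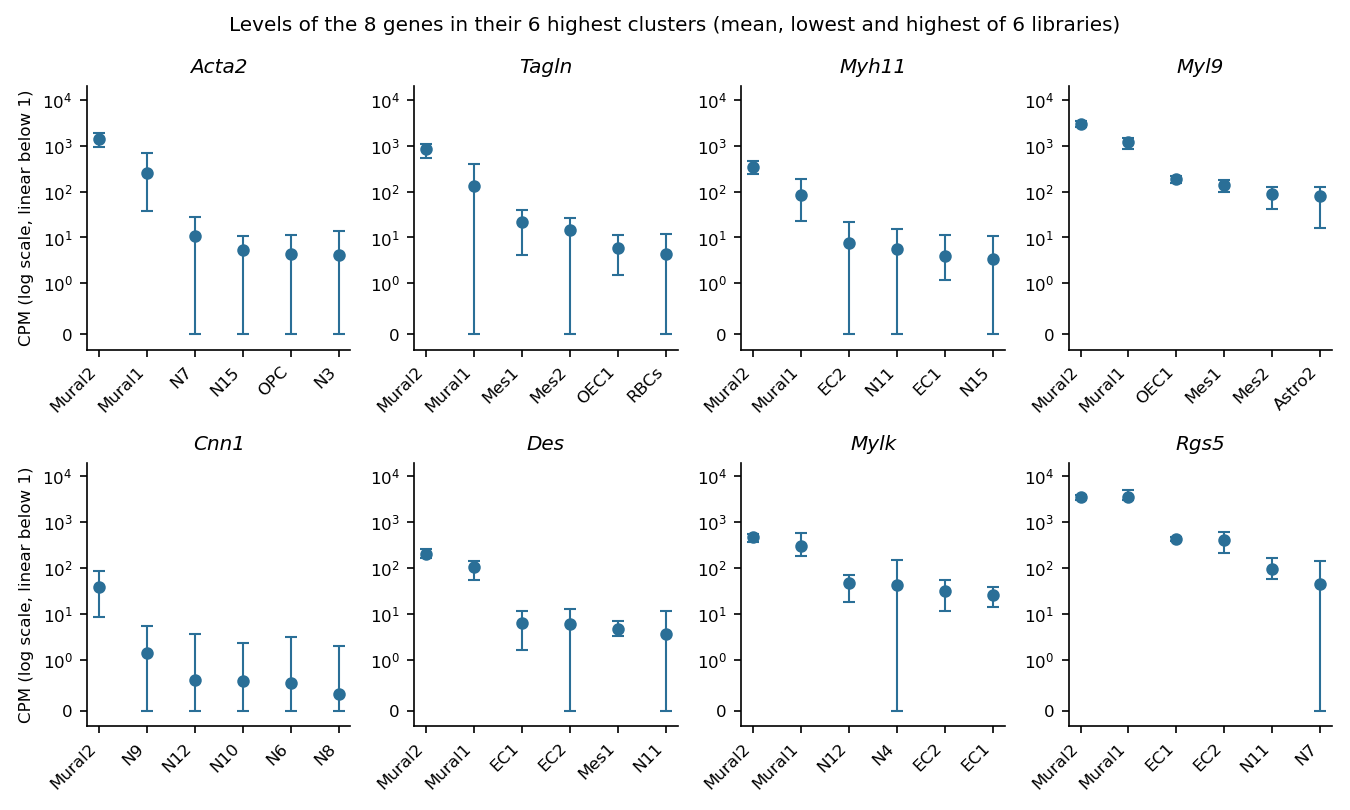
Level of each of the 8 genes in the 6 clusters with its highest means, in CPM on a logarithmic axis that is linear below 1. Points are means over 6 libraries and bars run from the lowest to the highest library. Mural2 comes first for every gene, and Mural1 follows for all but Cnn1, which had no UMI there.

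Outside the mural clusters, Rgs5 and Myl9 were found most. Rgs5 stood at 421 ± 34.2 CPM in the endothelial cluster EC1 and 409.7 ± 170 CPM in EC2, whose libraries overlapped, and 1810 of 50499 non-mural cells (3.58%) held a UMI of it. Of these cells, 181 held at least 5. In EC1 the level of Rgs5 was 3.06 to 5.01 times that of Vtn, which encodes vitronectin and is an abundant transcript of pericytes, over the 6 libraries, against 0.254 to 0.442 times in Mural2 and 0.592 to 1.32 times in Mural1. The pericyte receptor gene Pdgfrb stood at 9.47 CPM in EC1 and 1254 CPM in Mural2. The Rgs5 counts of EC1 did not stand in the ratio to Vtn that either mural cluster had as a whole. Within Mural1 the ratio varied. Pooled over cells, Rgs5 and Vtn stood at 4682 and 1478 CPM in its 20 cells with an Acta2 UMI. In its 138 cells without, they stood at 3170 and 4747 CPM. Where the Rgs5 RNA of EC1 came from was not tested. In EC2 the ratio to Vtn, 0.500 to 1.39, overlapped that of Mural1. The ratio to Pdgfrb was 7.14 to 27.5 in EC2 and 4.52 to 6.79 in Mural1. EC2 held only 33 Pdgfrb UMIs over the 6 libraries, so its ratios carry a large counting error. Their difference from Mural1 was not tested.

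Myl9 stood at 190 ± 22.8 CPM in the olfactory ensheathing cluster OEC1 and 141 ± 30.5 CPM in the mesenchymal cluster Mes1, where 107 of 653 cells held a UMI of it. Tagln had its highest level outside the mural clusters in Mes1 and Mes2, at 21.7 ± 14.04 and 14.2 ± 9.39 CPM. In Mes1 there were 33 Tagln UMIs beside 2 of Acta2, and in Mes2 12 beside 1, whereas Mural2 held 965 beside 1584. Most UMIs of every member but Mylk lay in the mural clusters. Mural cells gave 91.3% of all Acta2 UMIs, 86.1% of those of Tagln, 83.3% of Myh11, 78.0% of Des and 77.4% of Cnn1, but 62.6% of Rgs5, 60.8% of Myl9 and 42.1% of Mylk. Among non-mural cells, 0.309% held a UMI of Acta2, 0.287% one of Tagln, 0.170% one of Myh11, 0.162% one of Des and 0.0238% one of Cnn1, and no cell held more than 4 of any of these.

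Within Mural2, Acta2 was found in few cells. It had a UMI in 76 of 769 cells (9.88%), compared with 68 cells for Tagln, 84 for Myh11, 20 for Cnn1, 163 for Des, 212 for Mylk, 648 for Myl9 and 694 for Rgs5. A median Mural2 cell held 1349 UMIs, against 3508 in Mural1. After each cell was thinned to 500 UMIs, Acta2 was found in 7.93% of Mural2 and 5.06% of Mural1 cells. Rgs5 was then found in 73.6% and 74.7%, and Myl9 in 63.6% and 47.5%. Rgs5 and Myl9 were thus read from most mural cells, and Acta2, Tagln and Myh11 from a small fraction of them.

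Acta2, Tagln and Myh11 were found together. In Mural2, 662 of 769 cells (86.1%) held none of the 3, 39 held 1, 15 held 2, and 53 (6.89%) held all 3, whereas only 2 of 50499 non-mural cells held all 3. This count differed with the number of Acta2 UMIs in a cell, as did depth. Median totals were 1433 UMIs per cell at 1 Acta2 UMI, 1256 at 2 to 4 and 2908 at 5 or more. Of 58 cells with at least 5 Acta2 UMIs, 56 held Tagln and 53 held Myh11, and the highest cell had 89 Acta2 UMIs. Of 9 cells with 2 to 4 UMIs, 6 held Tagln, and of the 9 cells with exactly 1 UMI, which lie at the threshold, none held Tagln and 1 held Myh11.

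**Figure D2:**
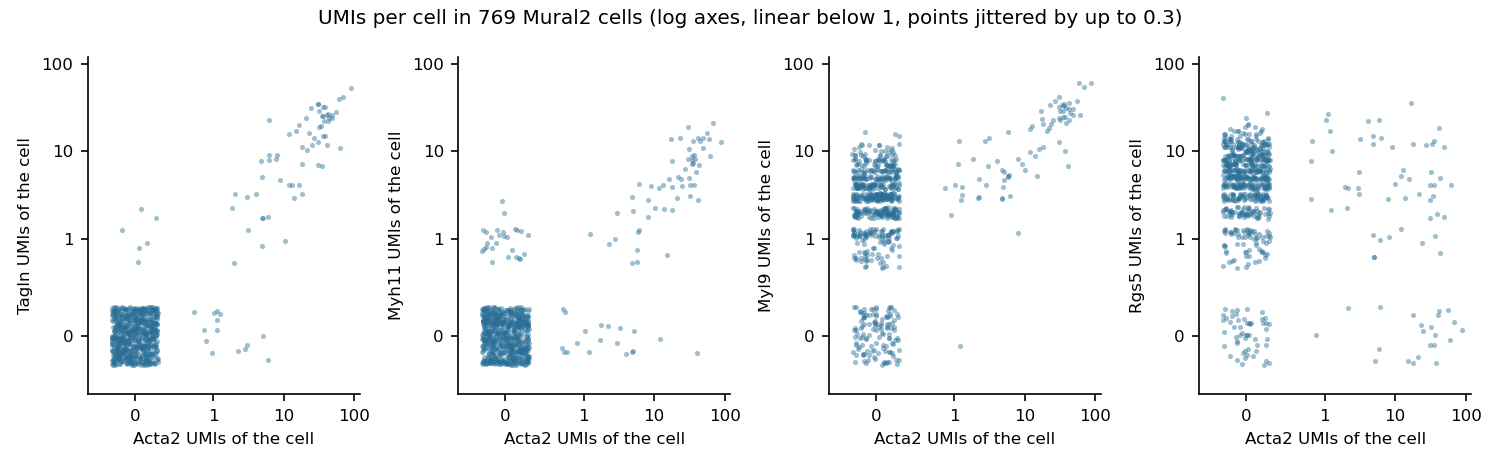
UMIs of Tagln, Myh11, Myl9 and Rgs5 against UMIs of Acta2 in each of the 769 Mural2 cells, on logarithmic axes that are linear below 1, with points jittered. The 58 cells with at least 5 Acta2 UMIs have medians of 14.5 UMIs for Tagln, 4.5 for Myh11, 21 for Myl9 and 1.5 for Rgs5. In the 693 cells without Acta2 the medians are 0, 0, 3 and 5. The 58 cells spread widely for each gene, up to 53, 21, 61 and 36 UMIs, and some hold no Tagln, Myh11 or Rgs5.

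The Mural2 cells of each library were summed in 2 classes, the 76 cells with an Acta2 UMI (10 to 14 per library) and the 693 without (77 to 160 per library), and compared with edgeR's quasi-likelihood test with the library as a block. The comparison asks whether the other members follow Acta2 within the cluster. Acta2 defined the classes and was not tested. Of the 7 other members, Tagln, Myh11 and Cnn1 passed the filter on low counts only through the cells with Acta2 and so had to differ, and their values are a description. The other 4 could pass through either class, and all differed at a Benjamini-Hochberg adjusted p below 0.05, with Myl9, Des and Mylk higher and Rgs5 lower in the cells with Acta2. Of all 2116 genes tested, 26.0% differed (14.2% higher and 11.8% lower), and of the 1213 that could pass through either class, 10.5% were higher and 11.6% lower. The libraries of the classes did not overlap for these 4, as for 15.9% of all genes tested (8.79% higher and 7.14% lower). Classes differed in depth too, with a median of 2495 UMIs per cell in the cells with Acta2 and 1296 in those without, and a median mitochondrial share of 10.7% and 9.37%. The part of depth in the differences was addressed by thinning, given below for each gene as the share of cells with a UMI.

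Among the actin-binding and filament genes, Tagln showed the widest gap. Its level in the cells with Acta2 was 4522 and 6033 CPM in the control libraries, 5207 and 4086 in the occluded and 5042 and 4290 in the trained, and in the cells without it was 0 in 3 libraries and at most 24.8 CPM in the others. No library of the cells without Acta2 came near the lowest of the cells with it. The classes held 957 and 8 UMIs, a ratio of 594 (95% counting interval 300 to 1379), with a log2 fold change of 8.97 ± 0.25 (SE). Myh11, the myosin heavy chain, stood at 1754 and 1960 (control), 2333 and 1479 (occluded), and 1654 and 1994 CPM (trained) in the cells with Acta2, and between 14.9 and 44.6 CPM in those without. Its log2 fold change was 5.82 ± 0.21. At 500 UMIs per cell, Tagln was found in 78.7% of the 61 cells that still held Acta2 and 0.989% of the 708 others, and Myh11 in 54.1% and 2.68%.

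Cnn1, the calponin gene, was found almost wholly with Acta2: 39 of its 41 UMIs lay in the 76 cells. The ratio was 96.8 (25.1 to 827, counting error only). Levels in the cells with Acta2 ranged from 78.0 CPM in control replicate 1 to 439.5 CPM in occluded replicate 1, which 18 cells in all carried. After thinning, only 4 of 61 cells with and 1 of 708 cells without Acta2 held Cnn1, so that the part of depth is poorly measured for it. Des, the desmin gene, stood at 473 ± 136 CPM with and 146 ± 5.31 CPM without Acta2, 3.24 times as high (log2 fold change 1.61 ± 0.24, adjusted p 4.4e-06). The lowest library with Acta2, occluded replicate 2 at 242 CPM, was still above the highest without, at 154 CPM. After thinning, Des was found in 24.6% of cells with and 7.49% of cells without Acta2.

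Of the regulators of myosin, Mylk stood at 1715 and 1884 CPM (control), 2198 and 1183 (occluded), and 2009 and 1868 (trained) in the cells with Acta2, and between 134 and 214 CPM in those without. The kinase gene was thus 9.61 times as high on average (log2 fold change 3.18 ± 0.16, adjusted p 2.24e-15). Myl9 stood at 6787 ± 905 CPM with Acta2 and 2196 ± 239 CPM without, a ratio of 3.09 (log2 fold change 1.58 ± 0.12, adjusted p 6.53e-12). Unlike Tagln and Myh11, it was found widely in the cells without Acta2: 573 of 693 held a UMI. After thinning the shares were 90.2% and 57.8% for Myl9, and 55.7% and 8.76% for Mylk.

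Rgs5 was the only member that was lower in the cells with Acta2. It stood at 1559 and 1909 CPM in control, 2164 and 2446 in occluded and 1694 and 2801 in trained libraries, against 4244 and 4142, 3564 and 4056, and 3265 and 4094 CPM in the cells without. The log2 fold change was -0.93 ± 0.12 (adjusted p 7.69e-07). Per cell, the mean number of Rgs5 UMIs was nearly the same, 5.58 with and 5.55 without Acta2, while all UMIs per cell were 2588 and 1409, so that the lower level is a lower share of a cell's RNA. The thinned share of cells with Rgs5 was 36.1% against 81.2%. Pooled over libraries with no error, Rgs5 stood at 3938 CPM in the cells without Acta2. It stood at 7201 CPM in the 9 cells with 1 Acta2 UMI (103 Rgs5 UMIs), 4285 CPM in the 9 with 2 to 4, and 1553 CPM in the 58 with at least 5. The bins of 9 cells are too small to show whether Rgs5 falls in step with Acta2. With both mural clusters pooled, the log2 fold change shrank to -0.32 (adjusted p 0.0316), and over 14 alternatives it stayed below 0.

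**Figure D3:**
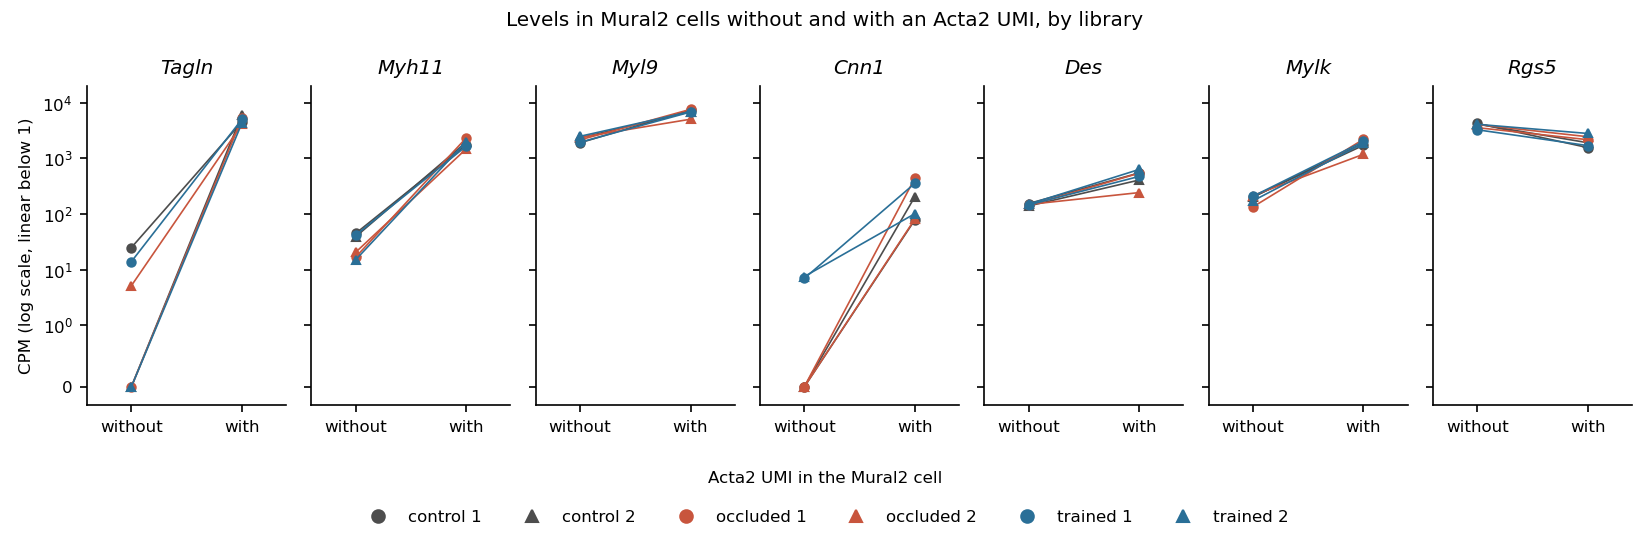
Level of the 7 other members in Mural2 cells without and with an Acta2 UMI, in CPM on a logarithmic axis that is linear below 1. Each line joins the 2 classes of 1 library, and colours and symbols mark condition and replicate. All 6 lines go up for Tagln, Myh11, Myl9, Cnn1, Des and Mylk, and all 6 go down for Rgs5.

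Other genes of the contractile apparatus were described by lists chosen by function, with earlier results of these data known. Of 32 further smooth muscle contractile genes, 28 were tested, of which 21 were higher and 2 lower with Acta2. Of these, 14 passed the filter only through the cells with Acta2. They include Pln, Nexn, Sncg and Csrp1, whose values below are therefore a description. Among the 14 that could pass through either class, 7 were higher and 2 lower, with a median log2 fold change of 0.74, against -0.10 for all genes of this kind. Pln, which encodes phospholamban, the inhibitor of the calcium pump of the sarcoplasmic reticulum, had 215 UMIs with and 1 without Acta2, a ratio of 1067 (189 to 42336, counting error only), and Nexn, for the actin-binding protein nexilin, had 32 and 2 UMIs, a ratio of 79.4 (20.3 to 684). Sncg, for gamma-synuclein, was higher with a log2 fold change of 7.03 ± 0.39. Csrp1, a LIM-domain protein gene, stood at 1228.5 ± 453 and 24.7 ± 13.9 CPM. The 2 genes that were lower, Tpm4 and Tagln2, are a tropomyosin of non-muscle cells and a paralogue of Tagln, with log2 fold changes of -0.86 and -0.67. Both calls were lost under alternatives, Tpm4 in 6 of 13 and Tagln2 in 4 of 14. Tagln2 was lower and its paralogue Tagln higher in the main comparison, but the value of Tagln is a description. Thinning to 500 UMIs was among the alternatives that lost the call of Tagln2.

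Of 20 pericyte genes, all tested, none was higher and 15 were lower with Acta2, and Rgs5 shared their direction. Among the 16 that could pass the filter through either class, 11 were lower, with a median log2 fold change of -1.33. The other 4 passed only through the cells without Acta2, so that their values are a description. Kcnj8 and Abcc9, which encode the 2 parts of the vascular ATP-sensitive potassium channel, stood at 52.1 and 27.9 CPM with Acta2 and at 893 and 552 CPM without (log2 fold change -4.15 for each). Ifitm1 and Slc6a20a followed with -3.33 and -3.23. With only 6 UMIs in the cells with Acta2, Abcc9 is among those 4 genes. Kcnj8, Slc6a20a and Ifitm1 held 10, 12 and 22 UMIs in these cells, and their fold changes are likewise given as a description. The summed level of the list was lower at more Acta2 UMIs: pooled over cells, it made up 33251 CPM in cells without Acta2, 29782 CPM at 1 UMI, 20842 CPM at 2 to 4, and 6967 CPM at 5 or more. The further contractile list went the other way, from 8060 to 13633, 19608 and 44156 CPM. These bins hold 693, 9, 9 and 58 cells, and their values are pooled over libraries with no error. Their median cells held 1296, 1433, 1256 and 2908 UMIs, so that the last bin is also the deepest.

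Genes that regulate or trigger contraction were less uniform. The list for vascular tone held 27 names, some of them older and newer symbols of the same gene. Of these, 25 were among the genes counted and 14 were tested, 4 of which were higher and 2 lower. All 6 passed the filter through 1 class only, so that their values are a description. Of the 7 that could pass through either class none was called (median log2 fold change -0.09). The higher ones were Pde3a and Pde5a, phosphodiesterases that degrade cyclic nucleotides, with log2 fold changes of 3.03 and 1.32, Rock1, a kinase that inhibits myosin phosphatase, with 1.85, and Cacna1c, the pore of the L-type calcium channel, with 1.61. The call of Cacna1c was lost in 4 of 12 alternatives and that of Pde5a in 2 of 14. The lower ones were Itpr2, a calcium release channel of the endoplasmic reticulum, with 3 and 106 UMIs (ratio 0.140, 0.0285 to 0.422), and the adenosine receptor gene Adora2a, at -1.53, whose call was lost in 2 of 11. The list for serum response factor, Notch and other regulators likewise held 20 names, of which 17 were among the genes counted and 8 were tested. Of the 8, 1 was higher (Mef2c, 0.45, lost in 8 of 14 alternatives) and 2 lower (Tgfb1, -1.78, lost in 2 of 10, and Heyl, -0.82, lost in 5 of 13). Of these 8, 6 could pass the filter through either class, of which 1 (Mef2c) was higher and 1 (Heyl) lower, with a median of -0.29. Tgfb1, with 6 UMIs with and 100 without Acta2, passed through 1 class only, so that its value is a description.

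Markers of other cell types were read beside the members. None of the 4 endothelial markers tested was called, and the summed endothelial list was 621 ± 409.7 CPM with and 571 ± 167 CPM without Acta2. By Acta2 UMIs, it was uneven. Pooled over cells with no error, it made up 592 CPM at 0 UMIs, 2307 CPM at 1, 1525 CPM at 2 to 4, and 415 CPM at 5 or more. Of 6 fibroblast markers tested, Serping1 was higher at a log2 fold change of 1.66 (lost in 2 of 12 alternatives), and Igf2 (2 and 225 UMIs), Slc6a13 (2 and 168 UMIs) and Apod (-0.79, lost in 8 of 14) were lower. Of these 6, 2 could pass the filter through either class, of which 0 were higher and 1 (Apod) was lower. Serping1, Igf2 and Slc6a13 passed through 1 class only, so that their values are a description. The fibroblast markers Dcn, Lum and Pdgfra were at 0 in the cells with Acta2, which allows up to 15.2 CPM for each. None of them was tested. All had a UMI in the cells without Acta2, but that class held 976279 UMIs against 196726, so the zeros alone show no difference. The lower calls also took in the olfactory ensheathing markers Apoe (-0.93) and Fabp7 (-0.75, lost in 5 of 14). They also included the neuron marker Meg3 (-1.20, lost in 2 of 14) and the oligodendrocyte marker Mbp (-0.98). These lists summed to 4192 ± 2032 against 7190 ± 2215, 1032 ± 492 against 1483 ± 331 and 576 ± 137 against 1121 ± 123 CPM. Libraries of the classes overlapped for the ensheathing and neuron lists. Such levels are shares of a cell's RNA, and all UMIs per cell were 2588 with and 1409 without Acta2. The 76 cells with Acta2 held 505 UMIs of Apoe, 148 of Fabp7, 71 of Meg3 and 110 of Mbp. The 693 cells without held 4345, 1172, 779 and 1056. The astrocyte list, at 504 ± 274 against 747 ± 162 CPM, had no call in 4 genes tested. The microglia list, at 317 ± 688 against 292 ± 149 CPM, had none in 1 gene tested. Its highest library with Acta2 stood at 1720 CPM. No red blood cell marker was tested. What part RNA from other cells had in the members' differences was not tested.

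Outside all lists, the genes with the largest gaps were named by a fixed rule, and all 16 passed the filter through 1 class only, so their values are a description. Fbxl22, an F-box protein gene, had 49 UMIs with Acta2 and none without, at least 81.1-fold higher against a floor of 3 UMIs over the class, and Myom1, for the sarcomere protein myomesin, had 20 and none, at least 33.1-fold higher. Rasd1 had 28 and 1, Palld 24 and 1, and Aoc3 34 and 2 UMIs. Sorbs2 and Fos stood at 649 and 844 CPM against 17.7 and 28.1 CPM, and Spint2 at 136 against 3.83 CPM. On the lower side, Saa1 had no UMI with and 149 without Acta2, at least 10.0-fold lower, and its neighbour in name Saa2 had 2 and 151. Sema6d had 1 and 147, Slc22a8 2 and 226, Pla1a 2 and 209, Itih5 2 and 123, Zdhhc1 2 and 118, and G0s2 5 and 328 UMIs.

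Mural1 differed from this pattern in its markers. It carried the endothelial list at 14105 ± 929 CPM, against 582 ± 192 CPM in Mural2, and the pericyte list at 14775 ± 2064 CPM, against 29194 ± 3100 CPM, so that its name as a mural cluster covers cells with endothelial RNA. Red blood cell markers reached 40719.8 CPM in control replicate 2. Acta2 was uneven between its libraries, at 702 and 101 CPM in control, 37.0 and 555 in occluded and 126 and 42.4 in trained. It had a UMI in 20 of 158 cells, 1 to 6 per library. Of these 20 cells, 15 held Tagln, 15 held Myh11, all held Myl9 and Rgs5, and none held Cnn1. The level of Rgs5 in Mural1 was 4739 ± 1331 CPM in the cells with Acta2 and 3371 ± 953 CPM in those without, higher in 4 of 6 libraries and so not lower with Acta2 as in Mural2, a difference that was not tested. Of the 138 cells without Acta2, 5 held Tagln, 10 Myh11 and all Rgs5.

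The question of the study's design is whether deprivation or training changes the cells of the bulb, and for the members it was asked in Mural2. All 8 were among the 3960 genes tested with edgeR on the 6 sums, and none was called in any of the 3 comparisons. Over all genes, 0.0253% were called between occluded and control (1 gene), 0% between trained and control and 0% between trained and occluded, and 169, 233 and 230 genes had an unadjusted p below 0.05. DESeq2 called 0 genes in each. With 2 libraries per condition, the intervals are wide, and a p above the threshold does not show equal levels. The comparisons share libraries, and all p-values measure the spread between libraries of pooled mice. In each condition these were a pool of males and a pool of females, so the spread includes any difference between the sexes.

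Acta2 stood at 984 and 1855 CPM in control, 1781 and 1038 in occluded and 918 and 1666 in trained Mural2. Each condition held a high and a low library, so that replicates differed by more than condition means did. The log2 difference was -0.04 (95% interval -0.59 to 0.51) for occluded against control, -0.16 (-0.72 to 0.39) for trained against control and -0.12 (-0.68 to 0.44) for trained against occluded. Tagln had 532 and 1080, 1031 and 656, and 765 and 980 CPM, and Myh11 237 and 383, 475 and 253, and 282 and 467 CPM, in the same order. Both were high in the libraries in which Acta2 was high. Their log2 differences were 0.03 (-0.49 to 0.56) and 0.16 (-0.41 to 0.73) for occluded, and 0.09 (-0.43 to 0.62) and 0.25 (-0.32 to 0.82) for trained, against control.

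Myl9, which most Mural2 cells hold, varied less, with 2522 and 3145 CPM in control, 3226 and 2804 in occluded, and 2671 and 3499 in trained. Its log2 difference from control was 0.07 (-0.28 to 0.42) in occluded and 0.10 (-0.25 to 0.44) in trained. Rgs5 had 3941 and 3742, 3287 and 3799, and 3030.3 and 3799 CPM, with -0.14 (-0.46 to 0.19) and -0.20 (-0.52 to 0.13). These 2 genes gave the narrowest intervals of the members. Mylk had 373 and 501, 542 and 369, and 477 and 559 CPM, with 0.01 (-0.45 to 0.48) and 0.22 (-0.24 to 0.67), and Des 198 and 187, 221 and 163, and 194 and 259 CPM, with -0.06 (-0.58 to 0.46) and 0.21 (-0.30 to 0.72). Cnn1, at 8.79 and 36.5, 87.0 and 12.9, and 58.8 and 28.8 CPM, was limited by its counts, with 0.93 (-0.74 to 2.59) and 0.92 (-0.76 to 2.60).

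Between trained and occluded, the log2 differences of Tagln, Myh11, Myl9, Cnn1, Des, Mylk and Rgs5 lay between -0.06 and 0.27, and the 95% intervals of all members but Cnn1 (-1.74 to 1.72) lay between -0.68 and 0.80. Adjusted p-values of the 8 members were 0.997 and above for occluded against control, 0.970 and above for trained against control and 0.901 and above for trained against occluded. For 0 of 8 members did the libraries of the 2 conditions stand apart in any comparison, where 33.0%, 33.9% and 34.8% of all genes tested did. The lists of other contractile, pericyte, tone and regulator genes had no call either. Their medians lay between -0.17 and 0.19, and those of the members were 0.02, 0.15 and 0.04.

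**Figure D4:**
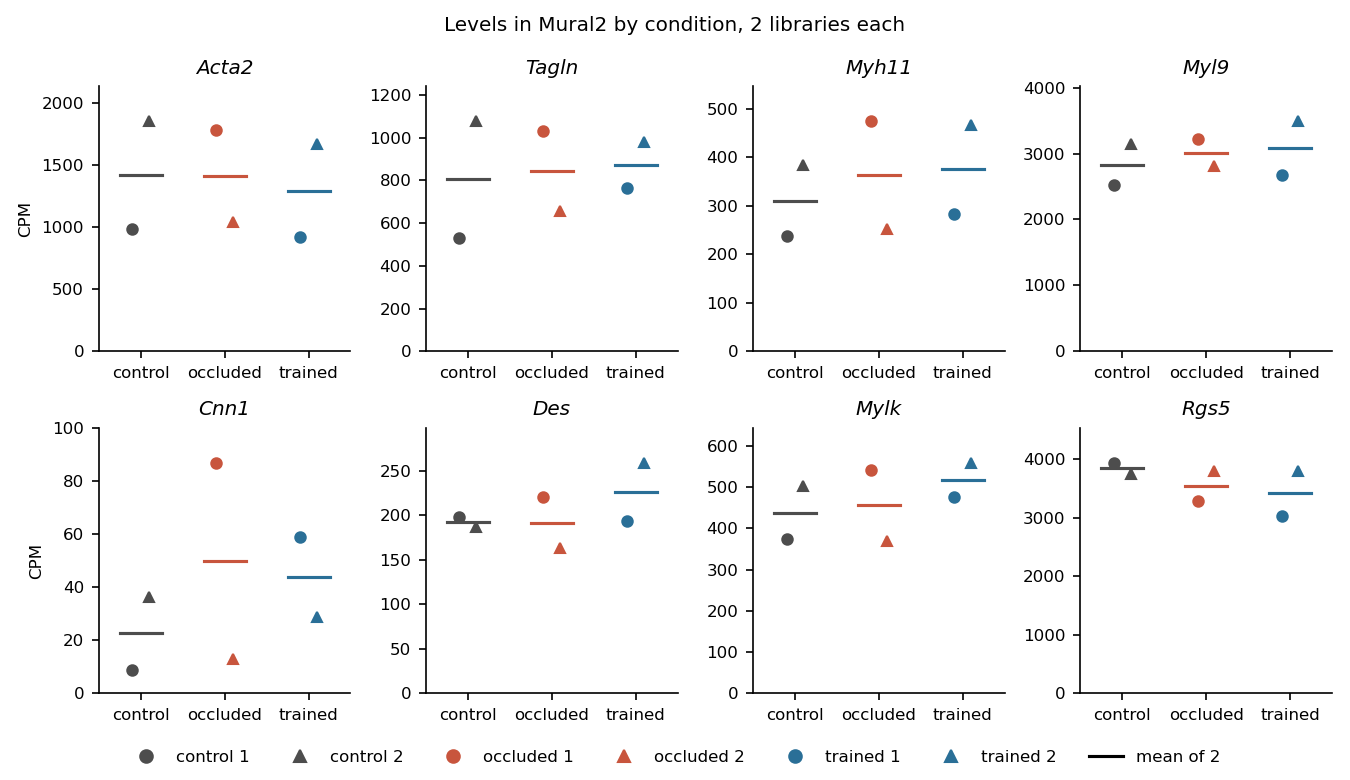
Level of the 8 genes in Mural2 by condition, in CPM on a linear axis from 0, with a point for each library and a line at the mean of 2. For each gene the libraries of the conditions overlap, and the high libraries of Acta2 (control 2, occluded 1 and trained 2) are also the high ones of Myh11 and Myl9.

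The share of Mural2 cells with an Acta2 UMI was 8.22% (12 of 146, exact 95% interval 4.32 to 13.9) and 10.3% (13 of 126, 5.61 to 17.0) in control libraries. In occluded libraries it was 11.5% (10 of 87, 5.65 to 20.1) and 8.05% (14 of 174, 4.47 to 13.1), and in trained ones 10.2% (13 of 127, 5.56 to 16.9) and 12.8% (14 of 109, 7.20 to 20.6). All 6 intervals overlap. The 3 libraries with the highest share were also the 3 with the highest Acta2 level, and how far the number of such cells sets the level was not tested. The means were 9.27%, 9.77% and 11.5%. Occluded exceeded control by 0.502 points (exact two-sided permutation p = 1), trained exceeded control by 2.27 points (exact permutation p = 0.667) and trained exceeded occluded by 1.77 points (exact permutation p = 0.667). Adjusted over the 3 comparisons each p was 1, and 2 against 2 libraries cannot go below 0.333.

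The only gene called in these comparisons was S100a5, a calcium-binding protein gene. It was lower in occluded (107 and 301 CPM) than in control Mural2 (611 and 914 CPM), with a log2 fold change of -2.02 ± 0.33 and an adjusted p of 0.0104 in edgeR. DESeq2 did not call it. It is no member, and Mural2, at 499 CPM, ranked 17 of 38 clusters for it, far below the neuronal cluster N5 at 20369.7 CPM. With the replicate number, and thereby sex, as a block, it was also the 1 gene called higher in trained than in occluded Mural2. No member was called with that block.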

How the data were processed

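Libraries were made with a droplet-based 3′ kit (Chromium v2). The authors deposited raw counts of UMIs per gene and barcode, without normalization, made with Cell Ranger 2.0.0 on mm10 per the submitters' processing notes. An annotation deposited by the authors gives, for each cell, its library, its cluster and its mitochondrial fraction, from Seurat 2.2.1, after removing doublets. Names of the trained libraries are reversed between barcodes and the library column of the annotation, and the column was used. Cluster names follow the annotation, and some numbers in them differ from those printed in the study. Mes1 here, with 653 cells, has the cell count of the study's Mes2. Mes2 here, with 230 cells, has that of the study's Mes1. The labels call control mice unmanipulated, while the study also describes the open side of occluded mice as control. Of 52549 barcodes, 1123 had no cluster and were left out, and 1461 barcode sequences occurred in more than 1 library, none of them among mural cells. Libraries held 6705 to 10570 cells and 11841160 to 17065083 UMIs, and Mural2 held 149388 to 233201 UMIs per library, so that 3 UMIs are 12.9 to 20.1 CPM. Intervals from counts cover counting error only.

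Counts were summed per library and tested with edgeR 4.0.16 (TMM scaling, filterByExpr, quasi-likelihood, Benjamini-Hochberg over all genes tested) in R 4.3.3, on all 6 libraries for conditions and with a library block for the Acta2 classes. CPM use the UMI total of the summed cells, without TMM. Scripts were tested on simulated data. Cells were thinned to 500 UMIs once with seed 1. Alternatives were DESeq2 1.42.0, other scaling, no filter, cells of at least 1000 UMIs, other cell sets, the replicate block and leaving out each library. The last 2 cell sets, Mural2 cells with and without an Acta2 UMI within the condition comparisons, were chosen after seeing the data, as was the split of genes by whether they pass the filter (125 CPM in at least 2 sums) through 1 class of cells only. The members and lists were chosen with earlier results of these data known. All 8 members were named in every comparison, with up to 4 called genes of each list and 8 outside the lists in each direction, by the largest fold change among those moving alike in every library or replicate number. The replicate number, which also separates the sexes, is not in the main test of conditions and its block is an alternative: deviations of same-numbered libraries correlated at 0.162, 0.152 and 0.126 over 3183 genes, with 2 pairs per comparison. The genes most similar to Myh11 over the clusters are not reported here.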

Additional observations from a re-analysis of the deposited data

Results flagged for a closer look

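Of the 1123 barcodes that have counts but no cluster and entered no comparison, some held UMIs of the members, above the 3 UMIs that a count of 0 allows. There were 77 UMIs of Myl9 (25.5 CPM), 40 of Rgs5 (13.2 CPM), 26 of Mylk (8.61 CPM) and 4 of Myh11 (1.32 CPM). Acta2 and Tagln had 2 each, Des 1 and Cnn1 0. For the 4 genes above 3 UMIs, these levels are below those in both mural clusters.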

How the results depend on the processing

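In the comparison of Mural2 cells with and without an Acta2 UMI, the 7 members kept their direction and their call in all 95 results of the alternatives, although in the main fit Tagln, Myh11 and Cnn1 passed the filter only through the cells with Acta2. Log2 fold changes ranged from 6.49 to 9.86 for Tagln, 4.59 to 6.01 for Myh11, 5.37 to 6.37 for Cnn1, 2.72 to 3.31 for Mylk, 1.25 to 1.85 for Des, 1.22 to 1.68 for Myl9 and -1.64 to -0.32 for Rgs5. Cnn1 was not tested without the library block and when thinned. The main fit called 301 genes higher and 250 lower. At 500 UMIs per cell, 575 genes were tested and 56 were called higher and 81 lower, and 119 of these calls were among those of the main fit. The genes called lower were 135 with DESeq2 and 609 with no filter.

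Between conditions, no member passed the threshold in 295 results of the alternatives, with a smallest adjusted p of 0.174, and 60 changed sign. For all genes, occluded against control gave 2 higher and 2 lower with no filter, 1 higher in cells of at least 1000 UMIs, 4 lower with both mural clusters, and 0 lower with DESeq2 and in cells with Acta2. Trained against control gave 3 higher and 4 lower with no filter, 3 lower with both mural clusters and 1 higher in cells without Acta2. Trained against occluded gave 4 higher and 2 lower with no filter and 2 higher with both mural clusters. Leaving out a library, which leaves a lone sample assumed to vary like the other groups, gave 0 to 8 higher and 1 to 3 lower for occluded against control, 0 to 14 and 0 to 13 for trained against control, and 0 to 20 and 0 to 18 for trained against occluded. The highest counts of both comparisons with trained came without trained replicate 2, and the 8 without occluded replicate 1 and without control replicate 2. The cause was not tested.

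With the replicate block, trained against occluded gave 1 gene higher, and Acta2 in occluded against control became 0.017. No other member or condition call changed under the block. Without the block, the Acta2 classes gave 206 higher and 192 lower of 1222 genes tested.

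The following changes of sign are in log2 units. For occluded against control, cells of at least 1000 UMIs gave Acta2 0.018 and Des 0.021, both mural clusters Tagln -0.24, Myl9 -0.052 and Mylk -0.0027, cells without Acta2 gave Mylk -0.16, and cells with it Tagln -0.14, Myl9 -0.13, Mylk -0.057 and Rgs5 0.46. For trained against control, both mural clusters gave Tagln -0.077 and Des -0.032, cells without Acta2 gave Des -0.0031 and Mylk -0.093, and cells with it Tagln -0.20, Myh11 -0.028, Myl9 -0.070 and Rgs5 0.38. For trained against occluded, Cnn1 was 0.020 with no filter, 0.14 with both mural clusters and 0.0030 when only these conditions were fitted, Rgs5 was 0.086 with both mural clusters, cells without Acta2 gave Myl9 -0.033, and cells with it Tagln -0.064 and Myh11 -0.10.

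Leaving out a library gave, for occluded against control, Acta2 -0.47 to 0.45, Tagln -0.39 to 0.60, Myh11 -0.31 to 0.59, Myl9 -0.077 to 0.20, Cnn1 -0.79 to 2.24, Des -0.26 to 0.17, and Mylk -0.26 to 0.29. For trained against control it gave Acta2 -0.65 to 0.33, Tagln -0.33 to 0.66, Myh11 -0.15 to 0.60, Myl9 -0.10 to 0.26, and Des -0.0075 to 0.39. For trained against occluded it gave Acta2 -0.60 to 0.30, Tagln -0.25 to 0.39, Myh11 -0.35 to 0.55, Myl9 -0.17 to 0.20, Cnn1 -0.99 to 1.70, Mylk -0.073 to 0.47, and Rgs5 -0.22 to 0.081.

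The difference in the share of cells with Acta2 between occluded and control was -0.661 points after thinning and -1.22 to 2.23 points when a library was left out, and between trained and occluded it was -0.370 points with at least 2 Acta2 UMIs. All 8 members were highest in Mural2 in each setting but without control replicate 1, control replicate 2 or occluded replicate 2. In these, 7 were, and Rgs5 was higher in Mural1. S100a5 ranged from -2.84 to -1.37 where it was called. Cnn1 rests on 41 UMIs in 20 Mural2 cells.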

Other observations

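For the members other than Myh11, the non-member genes with the most similar levels over the 38 clusters were found among 12597 genes that reach 20 CPM in a cluster, by Pearson's r of log2(mean CPM + 1). The clusters share libraries and were made from these counts, so that r is a description. Nearest to Acta2 were Gm12002 (r = 0.926), Map3k7cl (0.906) and Ephx3 (0.904). Des was nearest to Rem1 (0.942) and Saa2 (0.939). Saa2 had 2 UMIs in Mural2 cells with Acta2 and 151 in those without, while Des was higher in the cells with Acta2, so that genes alike over clusters went opposite ways within Mural2.

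Tagln was nearest to Pla2r1 (0.903), Gpr20 (0.895) and Mir143hg (0.891), the host transcript of smooth muscle microRNAs. Cnn1 was nearest to Fbxl22 (0.821), the gene with 49 UMIs in Mural2 cells with Acta2 and none in those without. Rgs5 was nearest to Abcc9 (0.896), Ndufa4l2 (0.890) and Gja4 (0.890), and Mylk to Notch3 (0.789), the receptor whose mutation causes a small vessel disease in humans. Myl9 was nearest to Rarres2 (0.878).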
